A study of Mus musculus with 4 samples.

Results

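The translation initiation factor genes of hematopoietic stem cells (HSCs) are described here, with and without the transcriptional regulator ID2. They are all rows of the expression table whose symbol begins with Eif and a digit, 59 in all, of which 5 rows for pseudogene symbols and 2 rows for the gamma subunit of eIF2 were left out. This gave 52 of the 19354 genes in the table. Of these, 40 encode subunits of the initiation factors and 12 encode kinases, binding proteins and other regulators. The genes lie on 18 chromosomes.

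Translation of most cellular mRNAs starts when the eIF4F complex binds the cap of the mRNA and recruits a small ribosomal subunit that already carries eIF1, eIF1A, eIF3, eIF5 and the eIF2 ternary complex with the initiator tRNA. The ribosome scans to a start codon, eIF2 hydrolyses its GTP and leaves, and the large subunit joins. Cells tune the process mainly through phosphorylation of eIF2α, which blocks its recycling by eIF2B, and through eIF4E-binding proteins, which are switched by mTORC1. HSCs make protein at a low rate compared with their progeny, and their function is known to be sensitive to a rise in that rate.

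The HSCs were sorted as LSK FLT3- CD48- CD150+ cells from bone marrow of mice carrying Mx1-Cre, a transgene whose interferon-inducible promoter acts in many hematopoietic and some other cells. In the Id2fl/fl mice, pIpC induced the Cre recombinase that deleted the floxed Id2 gene (Id2Δ/Δ), and the Id2+/+ controls carried Mx1-Cre and received pIpC as well. RNA came from pools of cells taken 2 weeks after pIpC, drawn from 14 Id2+/+ and 15 Id2fl/fl mice of 8 to 16 weeks of age over 2 experiments. Each genotype is represented by 2 RNA-Seq libraries, named WT and ID2KO replicates 1 and 2 in the plots, and the comparison asks which transcripts differ when HSCs lose Id2. No source used here says that the 2 libraries of a genotype came from separate mice, so p-values measure only the spread between libraries, which may be technical.

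Depth, estimated from the steps between low values, was about 14200000 and 15700000 reads for Id2+/+ HSCs against 17800000 and 18800000 reads for Id2Δ/Δ HSCs. The controls held 93 and 98 reads of Id2 and both Id2Δ/Δ libraries held 0, where a count of 0 allows up to about 0.169 and 0.159 CPM (reads of a gene scaled to a common library total, the unit of all levels here). All 8 HSC markers were detected, and their levels summed to 4457 and 4372 CPM in Id2+/+ against 3033 and 3586 CPM in Id2Δ/Δ HSCs, with 4 of 8 lower at an unadjusted limma p under 0.05. The 7 neutrophil markers summed to 141, 51.9, 108 and 25.7 CPM in Id2+/+ replicates 1 and 2 and Id2Δ/Δ replicates 1 and 2. Of these, 5 were highest in Id2+/+ replicate 1. Mpo and Elane were highest in Id2Δ/Δ replicate 1, with 476 and 143 reads against at most 142 and 52 reads elsewhere. The 5 detected of 6 erythroid markers summed to 52.9, 42.3, 41.9 and 64.1 CPM in the same order of libraries. The 4 megakaryocyte markers summed to 396 and 407 CPM in Id2Δ/Δ against 335 and 320 CPM in Id2+/+ HSCs, with 3 of 4 not overlapping, 2 of 4 higher at an unadjusted limma p under 0.05, and Itga2b overlapping. Over all genes tested, 19% were higher in Id2Δ/Δ without overlap and 4.67% had an unadjusted limma p under 0.05. No marker passed an adjusted limma p of 0.05. Of 3 B cell markers 2 had a row, with a summed level of 33.6 to 50.98 CPM that was almost all Cd79b, and none of 3 T cell markers had a row. The part of these shifts in the results that follow was not tested, and in bulk samples fewer cells of a type and less RNA per cell cannot be told apart.

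The initiation factor genes were among the abundant transcripts of these cells and none of them passed the test between the genotypes. They held 1.05% to 1.09% of all CPM in each library. Per kilobase of transcript their median level was 46.0 CPM, against 13.04 CPM for the 12366 protein-coding genes tested, and 44 of the 51 tested members stood above that median. Eif5a was the highest at 637 CPM per kilobase and Eif3j2 the lowest of those tested at 0.421 CPM per kilobase. A mean of at least 1 CPM over all 4 libraries was required for the test. Eif4ebp3 did not reach it, with 5 and 4 reads in Id2+/+ against 0 and 18 reads in Id2Δ/Δ HSCs.

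**Figure D1:**
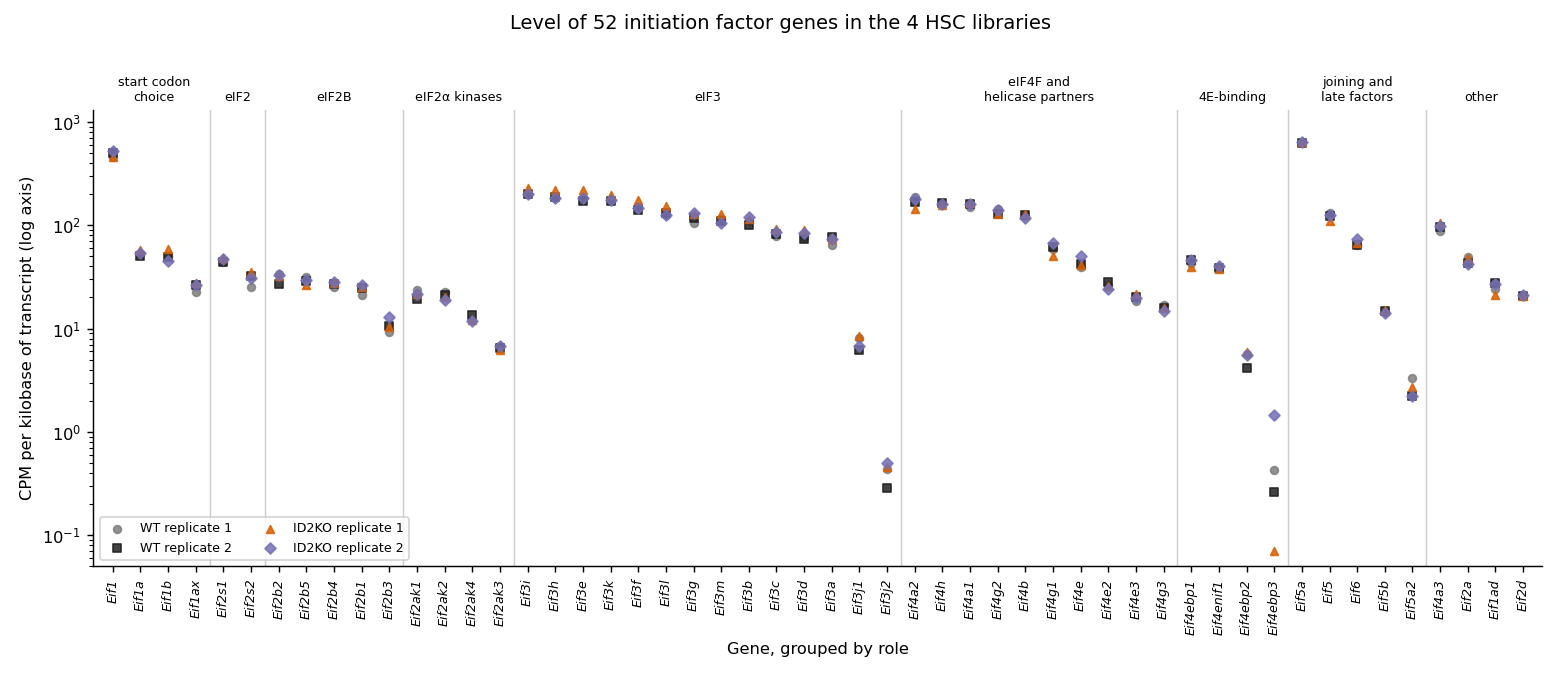
Level of each of the 52 initiation factor genes, in CPM per kilobase of transcript on a log axis, with 1 symbol for each of the 4 libraries and genes grouped by role. The 4 symbols of a gene lie close together compared with the distance between genes, except for scarce genes such as Eif4ebp3, whose value in ID2KO replicate 1 stands for 0 reads.

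None of the 51 tested genes passed an adjusted p-value of 0.05 between Id2Δ/Δ and Id2+/+ HSCs (limma, Benjamini-Hochberg over 15895 genes), and neither did any other gene, so the share called was 0%. The deleted gene Id2 was not called either, at a log2 fold change of -7.31 (SE 1.06). Its unadjusted limma p of 1.8e-04 was the smallest of all genes tested, and its adjusted p was 0.910. A gene left uncalled here is therefore not shown to be unchanged. At an unadjusted limma p under 0.05 there were 742 genes, 4.67% of those tested, and no initiation factor gene. Log2 fold changes of the members, Id2Δ/Δ minus Id2+/+, ran from -0.15 to 0.44 with standard errors (SE) of 0.09 to 0.76. The smallest adjusted limma p was 0.910. The mean was higher in Id2Δ/Δ HSCs for 35 members and lower for 16, a share of 68.6% higher against 51.7% of all genes tested. With each library corrected for transcript length, 37 were higher and 14 lower. The median log2 fold change was 0.07 for the members and 0.01 for all genes.

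In 17 members, 33.3%, both Id2Δ/Δ libraries lay on the same side of both Id2+/+ libraries, against 34.8% of all genes tested. Of these 14 were higher in Id2Δ/Δ, where all genes gave 19%, and 3 were lower, where all genes gave 15.8%. Among the 14 is Eif3j2, which reached the filter only through its Id2Δ/Δ libraries. The median absolute log2 fold change was 0.10, the median absolute difference between the Id2+/+ libraries was 0.11, and that between the Id2Δ/Δ libraries was 0.12. The fold change is a difference of means of 2 libraries and the other values are differences of single libraries, so they are not on an equal footing. Over all genes tested the 3 medians were 0.18, 0.19 and 0.29. Among the 40 subunit genes 30 had a higher mean in Id2Δ/Δ HSCs (median log2 fold change 0.10), and among the 11 tested regulators 5 had (median -0.02).

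**Figure D2:**
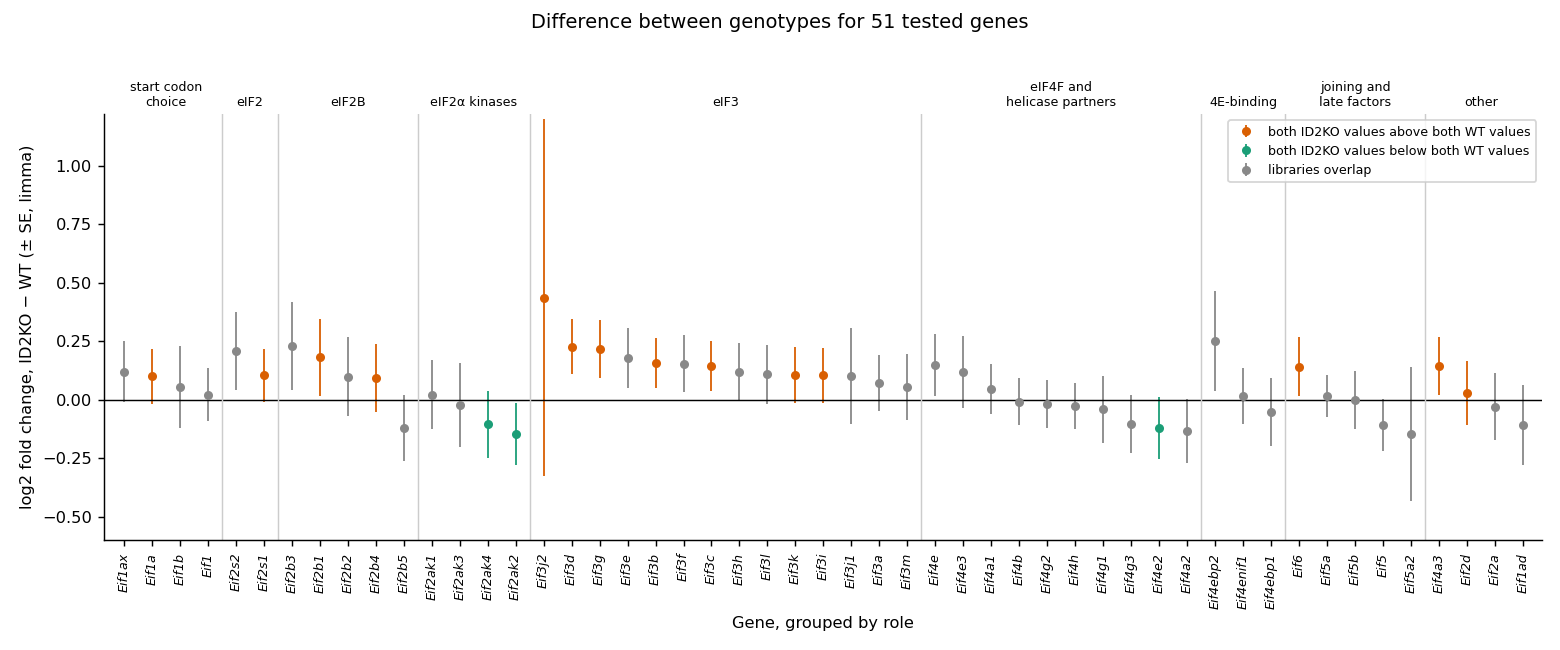
Log2 fold change (Id2Δ/Δ minus Id2+/+, labelled ID2KO and WT) with its SE from limma for the 51 tested genes, grouped by role and colored by whether the libraries of the genotypes overlapped. All 14 eIF3 genes lie above 0, and the wide bar of Eif3j2 belongs to a gene near 1 CPM.

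The eIF3 complex is the largest initiation factor. It binds the small ribosomal subunit, bridges it to eIF4G on the mRNA and holds back the large subunit. All 14 of its genes had a higher mean in Id2Δ/Δ HSCs, with log2 fold changes of 0.05 to 0.44 and a median of 0.13, but 0 of 14 passed the test, adjusted or unadjusted. In 7 of 14, 50%, the libraries did not overlap, all of them higher in Id2Δ/Δ HSCs, against 19% of all genes tested in that direction and 34.8% in either. Eif3j2 is among the 7 and gave the fold change of 0.44. Its mean was -0.25 log2 CPM in Id2+/+ and 0.19 log2 CPM in Id2Δ/Δ HSCs. It thus reached the filter of 1 CPM only through its Id2Δ/Δ libraries. With a mean of at least 10 CPM required, 13 of 13 eIF3 genes had a higher mean, with a median log2 fold change of 0.12. Eif3d, Eif3g, Eif3b, Eif3e and Eif3c had the smallest p-values of all members with a higher mean.

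Eif3d encodes a subunit that can itself bind the cap of selected mRNAs, and its gene occupies 77958998 to 77970813 of chromosome 15 (GRCm38, minus strand). It stood at 7.19 and 7.13 log2 CPM in Id2+/+ and at 7.43 and 7.34 log2 CPM in Id2Δ/Δ HSCs. Both Id2Δ/Δ values were above both Id2+/+ values, with a log2 fold change of 0.23 (SE 0.12, unadjusted p = 0.0934 and adjusted p = 0.910, limma). An annotated antisense gene, Gm17638, shares exon bases with Eif3d, and reads from the 2 genes cannot be told apart without strand.

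Eif3g, a subunit that binds RNA, had 6.86 and 7.01 log2 CPM in Id2+/+ and 7.14 and 7.17 log2 CPM in Id2Δ/Δ HSCs. Its libraries did not overlap and the log2 fold change was 0.22 (SE 0.12, unadjusted p = 0.120 and adjusted p = 0.910, limma). For Eif3b, a core subunit on which Eif3g and Eif3i assemble, the values were 8.34 and 8.22 log2 CPM against 8.40 and 8.47 log2 CPM, again without overlap and with a log2 fold change of 0.16 (SE 0.11, unadjusted p = 0.180 and adjusted p = 0.910, limma). Eif3c, part of the scaffold of the complex with Eif3a, was at 8.07 and 8.12 log2 CPM in Id2+/+ and at 8.28 and 8.19 log2 CPM in Id2Δ/Δ libraries, a log2 fold change of 0.14 (SE 0.11, unadjusted p = 0.214 and adjusted p = 0.910, limma).

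The higher mean of the eIF3 genes came largely from Id2Δ/Δ replicate 1. Their levels summed to 2898 and 2906 CPM in the controls, 3356.5 CPM in Id2Δ/Δ replicate 1 and 3017.5 CPM in replicate 2. Replicate 1 lay above both Id2+/+ libraries in 13 of 14 genes, 92.9%, where it did so in 40.1% of all genes tested. Replicate 2 lay above both in 7 of 14 genes, 50%, against 37.5% of all genes, and below both in 2. Eif3e, for example, was at 8.11 and 8.0 log2 CPM in Id2+/+ and at 8.37 and 8.10 log2 CPM in Id2Δ/Δ HSCs. Only the first of the Id2Δ/Δ values was higher than both controls, and the log2 fold change was 0.18 (SE 0.13, unadjusted p = 0.204 and adjusted p = 0.910, limma).

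Eif3h and Eif3i, which together with Eif3e have the highest levels per kilobase among the eIF3 genes, were also highest in Id2Δ/Δ replicate 1. Eif3h was at 7.91 and 7.92 log2 CPM in Id2+/+ and at 8.16 and 7.90 log2 CPM in Id2Δ/Δ HSCs. Eif3i was at 7.81 and 7.81 log2 CPM in Id2+/+ and at 8.02 and 7.81 log2 CPM in Id2Δ/Δ HSCs, so that its count as not overlapping rests on a difference smaller than these decimals show. Without Id2Δ/Δ replicate 1 the median log2 fold change of the 14 genes was 0.03 and 10 of 14 had a higher mean. Without Id2Δ/Δ replicate 2 the median was 0.23 and all 14 did.

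**Figure D3:**
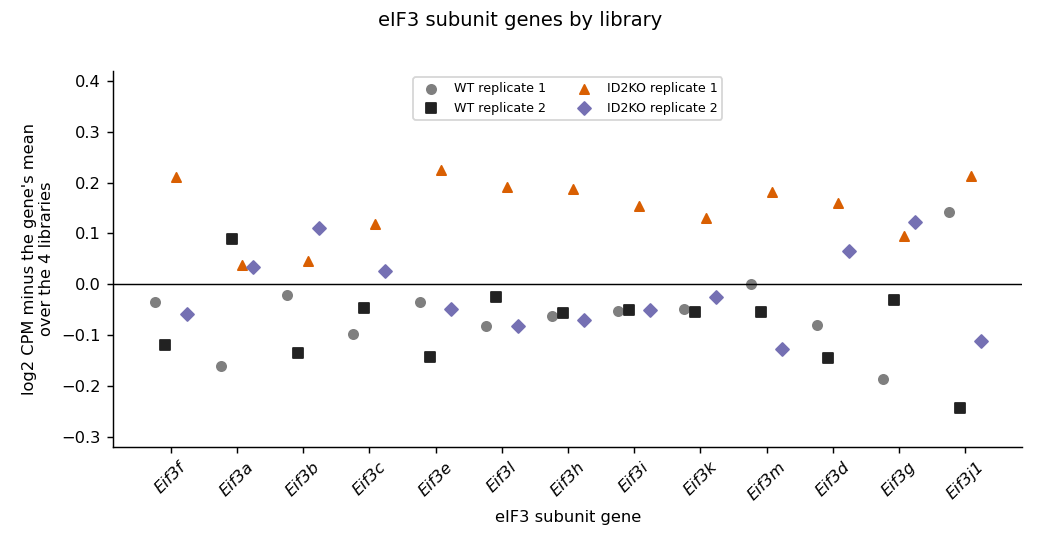
Deviation of each library from the gene's mean over the 4 libraries, in log2 CPM, for 13 eIF3 subunit genes, with the scarce Eif3j2 not drawn. The triangles of ID2KO replicate 1 lie highest in most genes, and the diamonds of ID2KO replicate 2 lie among or near the WT symbols in many.

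Id2Δ/Δ replicate 1 also held the lowest summed level of the HSC markers and, of the Id2Δ/Δ libraries, the higher summed level of the neutrophil markers. Mpo and Elane were higher there than in any other library. The part of any of these in the eIF3 values was not tested. The median eIF3 transcript is 1920.5 bases long. Over all genes tested the median log2 fold change was 0.09 for 5411 transcripts shorter than 2000 bases and -0.03 for 10444 longer ones, and over the members it was 0.10 for 16 shorter and 0.02 for 35 longer ones. After a correction of each library for transcript length, the median of the eIF3 genes was 0.15 and all 14 remained higher. Outside eIF3, 21 of 37 tested members had a higher mean, with a median log2 fold change of 0.02 and non-overlapping libraries in 7 higher and 3 lower genes, together 27.0% against 34.8% of all genes tested.

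Levels per kilobase of the eIF3 genes lay between 72.7 (Eif3a) and 208 (Eif3i) CPM for 12 of the 14. Eif3i, Eif3h and Eif3e ranged over 200 to 231, 185 to 221 and 170 to 220 CPM per kilobase across the libraries, so their order was not distinct. Eif3j1 and Eif3j2 encode the loosely bound subunit and stood far lower. Eif3j1 was at 5.45 and 5.07 log2 CPM in Id2+/+ and at 5.52 and 5.2 log2 CPM in Id2Δ/Δ libraries. Eif3j2 had 15 and 11 reads in Id2+/+ and 19 and 20 reads in Id2Δ/Δ libraries, and its log2 fold change of 0.44 had an SE of 0.76. The coding sequences of the pair are identical at 783 of 789 aligned positions with an unbroken identical run of 781 bases, so how their reads were divided is uncertain.

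ID proteins bind E proteins and keep them from E-box DNA, CANNTG, and MYC binds the form CACGTG. The promoters of eIF3 genes and of other members were therefore searched for both, in RefSeq windows on GRCm38.p6 from 250 bases before to 50 bases after a transcription start. Both motifs read the same on either strand, and every CACGTG is also a CANNTG. A window was given for 41 of 52 members, 54 windows in all, and for 27025 genes. A gene with more than 1 window was counted if any of them held the motif. The 27025 genes include genes not tested here, and genes of similar level were not compared. CACGTG was present for 10 of the 41 members, 24.4%, and for 8.09% of all genes, and CANNTG for 25 of 41, 61.0%, and for 75.0% of all genes. Among the 10 eIF3 genes with a window, 3 held CACGTG and 6 held CANNTG. The stretches around the motif are shown for Eif3f and Eif3k, the eIF3 genes in which it lies before the start, and for the cap-binding factor Eif4e. They lie at chr7:108934323-108934376 on the plus strand, chr7:28981903-28981956 on the minus strand and chr3:138527180-138527233 on the plus strand, and the motif starts 68, 44 and 64 bases before the transcription start. Capitals mark CACGTG.
Eif3f: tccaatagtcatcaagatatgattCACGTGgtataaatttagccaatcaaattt
Eif3k: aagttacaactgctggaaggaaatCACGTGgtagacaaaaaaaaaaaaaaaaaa
Eif4e: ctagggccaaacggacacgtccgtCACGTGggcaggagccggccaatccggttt
A match is a description of the letters and not evidence of binding. Eif3f was at 8.55 and 8.47 log2 CPM in Id2+/+ and at 8.80 and 8.53 log2 CPM in Id2Δ/Δ HSCs, and Eif3k at 7.29 and 7.28 log2 CPM against 7.47 and 7.31 log2 CPM. Only replicate 1 of the Id2Δ/Δ libraries stood clearly apart for either gene.

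Start codon choice is the task of eIF1 and eIF1A, which hold the scanning ribosome open until the initiator tRNA pairs with AUG. All 4 genes of this role had a slightly higher mean in Id2Δ/Δ HSCs (median log2 fold change 0.08), although 2 of the 4 were lower after the correction for transcript length. Only Eif1a had libraries that did not overlap. Eif1 (chromosome 11, 100319885 to 100322096, plus strand, GRCm38) had the second-highest level of all members at 487 CPM per kilobase. It was at 9.26 and 9.38 log2 CPM in Id2+/+ and at 9.23 and 9.45 log2 CPM in Id2Δ/Δ HSCs, with overlapping libraries. Its paralogue Eif1b (chromosome 9, 120492232 to 120495330, plus strand) was at 5.70 and 5.67 log2 CPM against 5.92 and 5.56 log2 CPM. Per kilobase Eif1 exceeded Eif1b by 7.74-fold to 11.6-fold in the 4 libraries. The coding sequences are 81.1% identical with no identical run longer than 25 bases. Their first 60 coding bases, from the start codon on, are shown to let the paralogues be told apart, with the 5 differing bases in capitals.
Eif1: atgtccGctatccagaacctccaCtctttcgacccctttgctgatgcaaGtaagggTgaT
Eif1b: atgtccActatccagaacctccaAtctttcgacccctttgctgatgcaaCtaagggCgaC
Eif1a and Eif1ax both encode eIF1A, with coding sequences 85.7% identical. Eif1a was at 7.23 and 7.19 log2 CPM in Id2+/+ and at 7.36 and 7.26 log2 CPM in Id2Δ/Δ HSCs, a log2 fold change of 0.10 (SE 0.12). Eif1ax was at 6.88 and 7.10 log2 CPM against 7.14 and 7.08 log2 CPM, and per kilobase it stood below Eif1a, by 1.91-fold to 2.31-fold.

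The eIF2 complex brings the initiator tRNA, and eIF2B reloads it with GTP. Eif2s1, which encodes the α subunit that the stress kinases phosphorylate, was at 7.24 and 7.24 log2 CPM in Id2+/+ and at 7.36 and 7.33 log2 CPM in Id2Δ/Δ HSCs. The libraries did not overlap, but the log2 fold change of 0.10 (SE 0.11) was small. Eif2s2, the β subunit gene, was at 6.01 and 6.35 log2 CPM against 6.48 and 6.29 log2 CPM, with overlap. Of the 5 eIF2B genes 4 had a higher mean in Id2Δ/Δ HSCs, and Eif2b1 and Eif2b4 did not overlap between genotypes. Both were higher, as were 19% of all genes tested without overlap. Eif2b2 was at 5.76 and 5.45 log2 CPM in Id2+/+ and at 5.68 and 5.73 log2 CPM in Id2Δ/Δ libraries, and Eif2b4 at 5.68 and 5.78 log2 CPM against 5.81 and 5.84 log2 CPM. The exception was Eif2b5, the catalytic subunit gene. It was at 6.33 and 6.22 log2 CPM in Id2+/+ and at 6.08 and 6.23 log2 CPM in Id2Δ/Δ HSCs, with a log2 fold change of -0.12 (SE 0.14, unadjusted p = 0.417 and adjusted p = 0.924, limma). Log2 fold changes of Eif2b1 and Eif2b3 were 0.18 and 0.23.

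The kinases of eIF2α each answer a different stress. Of the 4 genes, 3 had a lower mean in Id2Δ/Δ HSCs, or 2 after the correction for transcript length, and 0 passed the test. Eif2ak2 and Eif2ak4, both lower, did not overlap between genotypes, where 15.8% of all genes tested were lower without overlap. Eif2ak2 encodes PKR, which is activated by double-stranded RNA and is an interferon-induced gene, and both genotypes had received the double-stranded RNA pIpC. It was at 6.61 and 6.51 log2 CPM in Id2+/+ and at 6.46 and 6.36 log2 CPM in Id2Δ/Δ HSCs. Both Id2Δ/Δ values were lower, by -0.15 (SE 0.13, unadjusted p = 0.301 and adjusted p = 0.910, limma) on the log2 scale.

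Eif2ak4 encodes GCN2, the sensor of amino acid shortage, and was at 6.01 and 6.17 log2 CPM against 6.0 and 5.98 log2 CPM, again without overlap. Eif2ak1 encodes the heme-regulated kinase HRI and was at 6.68 and 6.39 log2 CPM in Id2+/+ and at 6.56 and 6.55 log2 CPM in Id2Δ/Δ HSCs. Eif2ak3, which encodes the endoplasmic reticulum kinase PERK, was at 4.95 and 4.86 log2 CPM against 4.81 and 4.95 log2 CPM. Per kilobase Eif2ak1 and Eif2ak2 were level, with a ratio of Eif2ak2 to Eif2ak1 of 0.876 to 1.09, while Eif2ak4 stood at 0.513 to 0.703 of Eif2ak1. Eif2ak1 exceeded Eif2ak3 by 3.02-fold to 3.50-fold.

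The eIF4F complex joins the cap-binding protein eIF4E, the helicase eIF4A and the scaffold eIF4G, with eIF4B and eIF4H as partners of the helicase. Of these 10 genes 7 had a lower mean in Id2Δ/Δ HSCs (median log2 fold change -0.02), but with the correction for transcript length 3 did (median 0.04), and without Id2Δ/Δ replicate 1 4 did (median 0.04), so the direction of the group rests on the scaling and on that library. Only Eif4e2 did not overlap between genotypes. Summed over the 10 genes, the level was 3656 and 3535 CPM in Id2+/+ and 3402 and 3684 CPM in Id2Δ/Δ HSCs. The lowest and the highest sum were both in Id2Δ/Δ HSCs, and replicate 1, where eIF3 stood highest, had the lowest.

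Among the helicases, Eif4a2 was at 9.0 and 8.82 log2 CPM in Id2+/+ and at 8.61 and 8.94 log2 CPM in Id2Δ/Δ HSCs, with a log2 fold change of -0.13 (SE 0.14, unadjusted p = 0.363 and adjusted p = 0.917, limma). Eif4a1 was at 8.07 and 8.17 log2 CPM against 8.17 and 8.16 log2 CPM. Per kilobase the paralogues were level, with a ratio of Eif4a2 to Eif4a1 of 0.883 to 1.25. Eif4a3, a related helicase that works in the exon junction complex rather than in eIF4F, was at 7.05 and 7.20 log2 CPM in Id2+/+ and at 7.31 and 7.23 log2 CPM in Id2Δ/Δ HSCs. It did not overlap between genotypes, at a log2 fold change of 0.14 (SE 0.12), and stood at 0.579 to 0.644 of Eif4a1 per kilobase. Eif4h was steady at 8.78 and 8.81 log2 CPM against 8.75 and 8.78 log2 CPM, and Eif4b had a log2 fold change of -0.01 (SE 0.10).

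The cap-binding gene Eif4e was at 7.63 and 7.73 log2 CPM in Id2+/+ and at 7.68 and 7.97 log2 CPM in Id2Δ/Δ HSCs, highest in Id2Δ/Δ replicate 2. Eif4e2, whose product represses bound mRNAs, was at 6.53 and 6.60 log2 CPM against 6.50 and 6.39 log2 CPM, with a log2 fold change of -0.12 (SE 0.13, unadjusted p = 0.387 and adjusted p = 0.924, limma). Eif4e3 was at 5.53 and 5.66 log2 CPM against 5.77 and 5.65 log2 CPM. Per kilobase Eif4e led, with Eif4e2 at 0.483 to 0.672 and Eif4e3 at 0.399 to 0.528 of its level. The oocyte-type paralogue Eif4e1b had no row in the expression table.

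The scaffold genes differ in how they start. Eif4g2 encodes a shortened relative of eIF4G1, also called DAP5, that lacks the part binding eIF4E and serves cap-independent initiation, and its reading frame is annotated to begin at GTG. It was the only 1 of the 52 members without an annotated ATG start. On GRCm38 it spans 111067750 to 111083030 of chromosome 7 (minus strand), Eif4g1 20668313 to 20692884 of chromosome 16 and Eif4g3 137993022 to 138208508 of chromosome 4 (both plus strand). The first 30 coding bases in GENCODE M21 are given with the start codon in capitals.
Eif4g1: ATGaacaaagctccccagcccacaggcccc
Eif4g2: GTGgagagtgcgattgcagaagggggtgct
Eif4g3: ATGaactcacaacctcaggcccggtctccg
Eif4g2 was the most abundant of the 3, at 10.18 and 10.01 log2 CPM in Id2+/+ and at 10.01 and 10.14 log2 CPM in Id2Δ/Δ HSCs, and per kilobase it exceeded Eif4g1 by 2.12-fold to 2.54-fold and Eif4g3 by 8.21-fold to 9.62-fold. Eif4g1 was at 8.37 and 8.43 log2 CPM against 8.16 and 8.55 log2 CPM, so that the Id2Δ/Δ libraries lay on both sides of the controls. Eif4g3 was at 7.11 and 7.0 log2 CPM against 7.0 and 6.90 log2 CPM.

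Proteins that bind eIF4E keep it from eIF4G when mTORC1 is low. Eif4ebp1 was at 6.42 and 6.53 log2 CPM in Id2+/+ and at 6.31 and 6.54 log2 CPM in Id2Δ/Δ HSCs, and Eif4enif1, which carries eIF4E into the nucleus, at 7.15 and 7.17 log2 CPM against 7.11 and 7.24 log2 CPM. Eif4ebp2 was at 5.05 and 4.57 log2 CPM in Id2+/+ and at 5.11 and 5.0 log2 CPM in Id2Δ/Δ HSCs, with a log2 fold change of 0.25 (SE 0.21) and overlapping libraries. Per kilobase Eif4ebp1 exceeded Eif4ebp2 by 6.62-fold to 11.3-fold. No gene of this role had libraries that separated the genotypes.

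The late factors act at GTP hydrolysis and subunit joining. Eif5a, the target of hypusine modification, which helps the ribosome through difficult stretches, had the highest level per kilobase of all members and the smallest SE. It was at 9.85 and 9.80 log2 CPM in Id2+/+ and at 9.84 and 9.85 log2 CPM in Id2Δ/Δ HSCs, a log2 fold change of 0.02 (SE 0.09). The paralogue Eif5a2 had 238 and 179 reads in Id2+/+ and 245 and 206 reads in Id2Δ/Δ libraries. Per kilobase Eif5a exceeded it by 193-fold to 288-fold. Eif5a spans 69916714 to 69921958 of chromosome 11 (minus strand) and Eif5a2 28781276 to 28798846 of chromosome 3 (plus strand), on GRCm38. Their coding sequences are 72.7% identical with no identical run longer than 14 bases, and the first 60 coding bases show 17 differences, in capitals.
Eif5a: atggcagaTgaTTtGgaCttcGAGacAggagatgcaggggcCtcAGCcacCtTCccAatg
Eif5a2: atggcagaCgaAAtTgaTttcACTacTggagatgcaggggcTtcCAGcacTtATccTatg
Eif5 encodes the activator of the eIF2 GTPase and was at 9.06 and 8.95 log2 CPM in Id2+/+ and at 8.80 and 8.99 log2 CPM in Id2Δ/Δ HSCs, with overlap and a log2 fold change of -0.11 (SE 0.11, unadjusted p = 0.370 and adjusted p = 0.919, limma). Eif6, which keeps free large subunits from joining, was at 6.58 and 6.58 log2 CPM against 6.67 and 6.78 log2 CPM. Its libraries did not overlap (log2 fold change 0.14, SE 0.13), and the annotated antisense gene Gm16098 shares exon bases with it. Eif5b, the GTPase of subunit joining, had a log2 fold change of 0.00 (SE 0.12).

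Other members stood apart from the core complexes. Eif2a, which can deliver the initiator tRNA without eIF2, was at 6.83 and 6.63 log2 CPM in Id2+/+ and at 6.79 and 6.60 log2 CPM in Id2Δ/Δ HSCs. Eif1ad was at 5.95 and 6.14 log2 CPM against 5.77 and 6.11 log2 CPM. Eif2d, which acts on recycled small subunits, had a log2 fold change of 0.03 (SE 0.14) with libraries that did not overlap. It was at 6.09 and 6.09 log2 CPM in Id2+/+ and at 6.10 and 6.13 log2 CPM in Id2Δ/Δ HSCs. Its count as not overlapping thus rests on a very small difference. Across all members, 16 share exon bases with another annotated gene other than a small RNA, 14 of them with a gene on the opposite strand, and the use of strand in counting is not given in the sources used here.

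**Figure D4:**
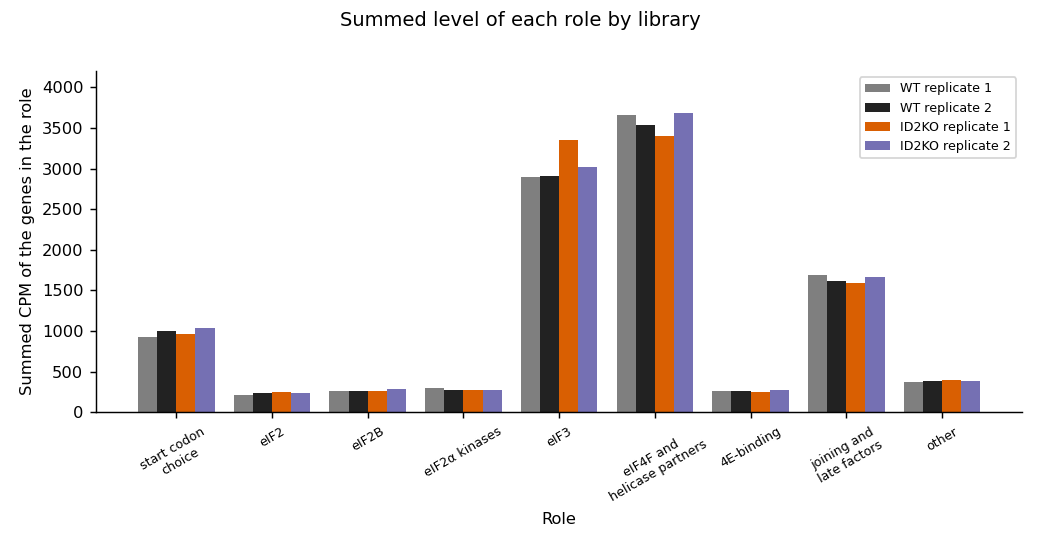
Summed level of the genes of each role, in CPM from 0, with 1 bar for each of the 4 libraries. The eIF3 bar of ID2KO replicate 1, at 3356.5 CPM, is taller than the other 3 of its role, and the eIF4F bar of the same library, at 3402 CPM, is the shortest of its role.

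Genes that work beside the initiation factors were taken from lists of other translation and stress genes. Of 63 that were tested, 37 had a higher and 26 a lower mean in Id2Δ/Δ HSCs (median log2 fold change 0.01). Libraries did not overlap in 13 higher and 6 lower genes, together 30.2% against 34.8% of all genes tested. None passed the test, adjusted or unadjusted, and the smallest unadjusted limma p was 0.0655. It belonged to Gspt2, which encodes a GTPase of translation termination and was at 3.31 and 3.27 log2 CPM in Id2+/+ and at 3.70 and 3.97 log2 CPM in Id2Δ/Δ HSCs, a log2 fold change of 0.55 (SE 0.25). Of the 7 termination and recycling genes 6 had a higher mean. Etf1, the release factor gene, was at 6.29 and 6.37 log2 CPM against 6.67 and 6.38 log2 CPM.

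Of 8 genes for scanning helicases, poly(A)-binding proteins and their partners 5 had a higher and 3 a lower mean. Dhx29, a helicase that aids scanning through structured leaders, was at 4.99 and 4.97 log2 CPM in Id2+/+ and at 5.28 and 5.38 log2 CPM in Id2Δ/Δ HSCs, a log2 fold change of 0.35 (SE 0.17, unadjusted p = 0.0723 and adjusted p = 0.910, limma). Pabpc1, the cytoplasmic poly(A)-binding protein gene, was at 9.50 and 9.51 log2 CPM against 9.86 and 9.61 log2 CPM, a log2 fold change of 0.23 (SE 0.11, unadjusted p = 0.0751 and adjusted p = 0.910, limma). For both genes each Id2Δ/Δ library was above both controls. Of the 11 elongation genes 5 had a higher mean. The smallest p-values were those of Eef1b2 and Eef1e1, at log2 fold changes of 0.21 and 0.29 and unadjusted limma p-values of 0.155 and 0.165 (adjusted p = 0.910 for both).

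In the eIF2α branch, 9 of 11 tested genes for ATF4 and its targets had a higher mean in Id2Δ/Δ HSCs. That share is 81.8%, against 51.7% of all genes tested, and their median log2 fold change was 0.12. The 4 that did not overlap were all higher, 36.4% of the list. Over all genes tested the share was 19% in that direction and 34.8% in either. The genes with a lower mean were Ddit3 and Atf3. Atf3 had the largest change of the list, -0.81 (SE 1.60), but its libraries lay far apart within each genotype. It had 21 and 312 reads in Id2+/+ and 10 and 280 reads in Id2Δ/Δ HSCs, with replicate 2 the higher in both genotypes. Sesn2, which restrains mTORC1 when leucine is short, was at 4.29 and 4.19 log2 CPM in Id2+/+ and at 4.70 and 4.61 log2 CPM in Id2Δ/Δ HSCs. Both Id2Δ/Δ values were higher, with a log2 fold change of 0.41 (SE 0.20, unadjusted p = 0.0711 and adjusted p = 0.910, limma). Asns, asparagine synthetase, was at 5.09 and 5.34 log2 CPM against 5.42 and 5.55 log2 CPM. Of the 5 genes for eIF2α phosphatase subunits 2 had a higher mean, and Ppp1r15b, which directs the phosphatase to eIF2α, was at 6.71 and 6.82 log2 CPM in Id2+/+ and at 6.28 and 6.63 log2 CPM in Id2Δ/Δ HSCs. Its log2 fold change was -0.31 (SE 0.16, unadjusted p = 0.0876 and adjusted p = 0.910, limma) without overlap, and Ppp1ca was at 0.10 with overlap. Gcn1l1, whose product activates GCN2 on stalled ribosomes, was at 7.20 and 6.93 log2 CPM against 6.56 and 6.93 log2 CPM, a log2 fold change of -0.32 (SE 0.17, unadjusted p = 0.0977 and adjusted p = 0.910, limma). The 3 tested genes of GCN2 partners were split, with 1 higher, and Impact had a log2 fold change of -0.08.

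In the eIF4E branch, 6 of 12 genes of mTORC1 and the S6 kinases had a higher mean and the median log2 fold change was -0.02. Pdcd4, which blocks eIF4A, was at 6.92 and 7.05 log2 CPM in Id2+/+ and at 7.51 and 6.98 log2 CPM in Id2Δ/Δ HSCs, with only replicate 1 above the controls. Rps6kb1, an S6 kinase gene, was at 6.70 and 6.78 log2 CPM against 6.68 and 6.55 log2 CPM. Both genes for the MNK kinases of eIF4E, Mknk1 and Mknk2, had a lower mean with overlap, at -0.14 and -0.01. The hypusine enzyme genes Dohh and Dhps, which modify Eif5a protein, were at 0.11 and 0.00, and the mitochondrial factor genes Mtif2 and Mtif3 at 0.02 and 0.00, all with overlapping libraries.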

How the data were processed

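RNA was purified with a micro column kit and sequenced. The submitters' processing notes name CASAVA 1.8.4, Trimmomatic 0.30, TopHat2 2.0.8, RSEM and STAR and the builds mm9 and NCBIM37, without saying what each was used for. The authors deposited log2 CPM values for 19354 genes in 4 columns. The unit was read from the values, since the columns sum to 999980 to 999996 CPM, and the sorted columns differ by less than 0.1 in 88.4% of ranks, as after quantile normalization. Normalization of this kind removes differences in the spread of values between libraries. How multiply mapping reads were counted is not given in the sources used here.

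The deposited values were taken unchanged. Where the mean over the libraries reached 1 CPM, genes entered a limma fit (limma 3.58.1, R 4.3.3, genotype as the term, variance trended on intensity), with two-sided p-values, Benjamini-Hochberg adjustment over 15895 genes and calls at an adjusted p under 0.05. The fit was tested on simulated data. Below 32 CPM, reads were taken from the rank of the distinct values of a library, and depth from the median of (reads + 0.5) over CPM. A count of 0 allows 3 reads, which covers counting error only. After quantile normalization CPM need not be proportional to reads, so depth and the limits for 0 reads are approximate. Levels between genes were compared per kilobase of the longest coding transcript of GENCODE M21 (GRCm38), to which 52 of 52 members matched by Ensembl identifier. Coding sequences and gene coordinates come from that annotation, promoters from RefSeq on GRCm38.p6, and pairs were aligned with Biopython 1.88.

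Named with values in every library were the 3 members of each role with the highest level per kilobase, the 5 members in each direction with the smallest p-value, the paralogue groups, the members under the filter and, of each list of other genes, the 2 with the smallest p-value, along with Id2. A few were given by fold change only. The members and lists were chosen with earlier results of these data known. The alternatives varied the pseudocount, scaling, filter, trend, replicate block, transcript length, members and libraries. Those on eIF3 alone and on counts by role were chosen after seeing the data. The 4 samples fall into 2 genotypes by their labels.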

Additional observations from a re-analysis of the deposited data

How the results depend on the processing

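No initiation factor gene was called under any of 12 settings. Of 560 values of single genes under them, 39 changed sign, in 23 members whose libraries overlap. Members whose libraries do not overlap cannot change sign when 1 library is left out. With a replicate block the count of called genes was 1 in place of 0 and no initiation factor gene was called. The block cannot move the fold changes of this balanced design, so the median of the members is 0.0712 by construction. Labels do not say that a replicate number marks a shared experiment, and deviations of libraries with the same number correlated at 0.0592 over all genes tested and at 0.139 over those above 32 CPM, where most members lie. The median of the members was 0.0583 to 0.0754 under other pseudocounts, scalings, filters and corrections, 0.1001 over the subunit genes alone, and 0.0401 to 0.0734 when each library was left out. Leaving out a library gave 0 to 7 members at an unadjusted limma p under 0.05. There was 1 (Eif4e) without Id2Δ/Δ replicate 1 and 7 without Id2Δ/Δ replicate 2, namely Eif3d, Eif3e, Eif3f, Eif3h, Eif3l, Eif4a2 and Eif4g1. In these fits the lone sample of a genotype is assumed to vary like the other genotype. Members that did not overlap numbered 27 to 41 in place of 17, since fewer libraries were compared. The median of the eIF3 genes was 0.0337 to 0.228 and their number with a higher mean 10 to 14, the lowest values without Id2Δ/Δ replicate 1. Recounts of overlap for another pseudocount, scaling, trend, block or length correction were not run. With 2 libraries a genotype, differences of the size of the SE could not be told from the spread between libraries. After the correction for transcript length, the log2 fold change turned to 0.103 for Eif4g2, -0.0111 for Eif1b, 0.0206 for Eif4g3, 0.0365 for Eif2ak3, -0.0208 for Eif1, 0.0393 for Eif4g1, 0.0358 for Eif4b and -0.0164 for Eif5a, and with shifted libraries to -0.0127 for Eif5b. The range on leaving out each library crossed 0 for Eif1 (-0.0879 to 0.131), Eif1ad (-0.281 to 0.0636), Eif1b (-0.128 to 0.235), Eif2a (-0.128 to 0.0693), Eif2ak1 (-0.128 to 0.17), Eif2ak3 (-0.0881 to 0.0446), Eif2b2 (-0.0593 to 0.255), Eif3a (-0.0542 to 0.197), Eif3h (-0.0108 to 0.247), Eif3j1 (-0.0922 to 0.293), Eif3l (-0.0278 to 0.246), Eif3m (-0.101 to 0.209), Eif4a1 (-0.00451 to 0.0964), Eif4a2 (-0.302 to 0.0349), Eif4b (-0.0633 to 0.0459), Eif4ebp1 (-0.17 to 0.0633), Eif4enif1 (-0.0452 to 0.077), Eif4g1 (-0.236 to 0.153), Eif4g2 (-0.1 to 0.064), Eif5a (-0.00823 to 0.0419), Eif5a2 (-0.436 to 0.141) and Eif5b (-0.054 to 0.0544). The cause of these changes of sign was not tested.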
